A study of Caenorhabditis elegans with 2 samples.

Results

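The retinoblastoma (Rb) gene lin-35 and 7 further genes of the DREAM complex of Caenorhabditis elegans were followed in a map of MEC-3 binding. The 8 genes are lin-35, efl-1, dpl-1, lin-9, lin-37, lin-52, lin-53 and lin-54, out of 19973 protein-coding genes on the 6 nuclear chromosomes. They were selected on the signal of 1 of them: lin-35 was known to have a strong peak in its promoter in both replicates, and the other 7 were added as its partners in the complex. The values of lin-35 are therefore a description, and no test was made on any of the 8. The map is chromatin immunoprecipitation sequencing (ChIP-seq) with an antibody against GFP in whole late embryos, collected 4 h after bleach synchronization of strain OP55, hermaphrodites of genotype unc-119(ed3) III; wgIs55. That strain carries a stable transgene for MEC-3, a LIM homeodomain factor of the touch receptor neurons, with GFP and FLAG at its C terminus. There was 1 group with 2 biological replicates, and no control sample was used here. Since whole embryos were taken, a few strongly bound cells and many weakly bound cells cannot be told apart.

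DREAM is a repressor complex conserved from worms to humans. LIN-35 is the worm's pocket protein of the Rb family. EFL-1, an E2F-type factor, and its dimerization partner DPL-1 bind DNA, and LIN-9, LIN-37, LIN-52, LIN-53 and LIN-54 form the MuvB core, in which LIN-54 also contacts DNA. In worm somatic cells the complex keeps cell cycle genes and germline genes low, and its genes belong to class B of the synMuv genes, which antagonize vulval induction together with class A genes.

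The data were lists of regions with a summit and a signal, which are the authors' own values. Replicate 1 had 30000 candidate regions, replicate 2 had 22464, the list called on both replicates (the pooled list) 27953, and the final set 457 peaks. Signals ran from 11.9 to 278 in replicate 1, from 13.99 to 438 in replicate 2 and from 21.8 to 722 in the pooled list, where the lowest final peak had 77.4. Candidate lists include background by their name, read depth is unknown, and signals are compared only within a list, where rank 1 is the highest signal. A region was assigned to a gene when its summit lay from 1000 bp upstream to 500 bp downstream of an annotated 5′ end. Many worm transcripts are trans-spliced or come from operons, so an annotated 5′ end need not be the start of transcription.

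Of the 8 genes, 1 had a final peak in its promoter window, namely lin-35, beside 1.66% of all protein-coding genes. A pooled candidate region was found for 7 of 8, all but dpl-1, beside 41.3% of all genes. In replicate 1, 4 of 8 had a region (42.7% of all genes) and in replicate 2, 7 of 8 (35.8%). The genes with a region in each of the 3 candidate lists were lin-35, lin-52, lin-53 and lin-54, 4 of 8, beside 22.7% of all genes. Because the set was assembled around a gene with a known peak, nothing is read from these counts. Among the remaining genes the pooled signal was at most 43.7, under the lowest final signal.

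**Figure D1:**
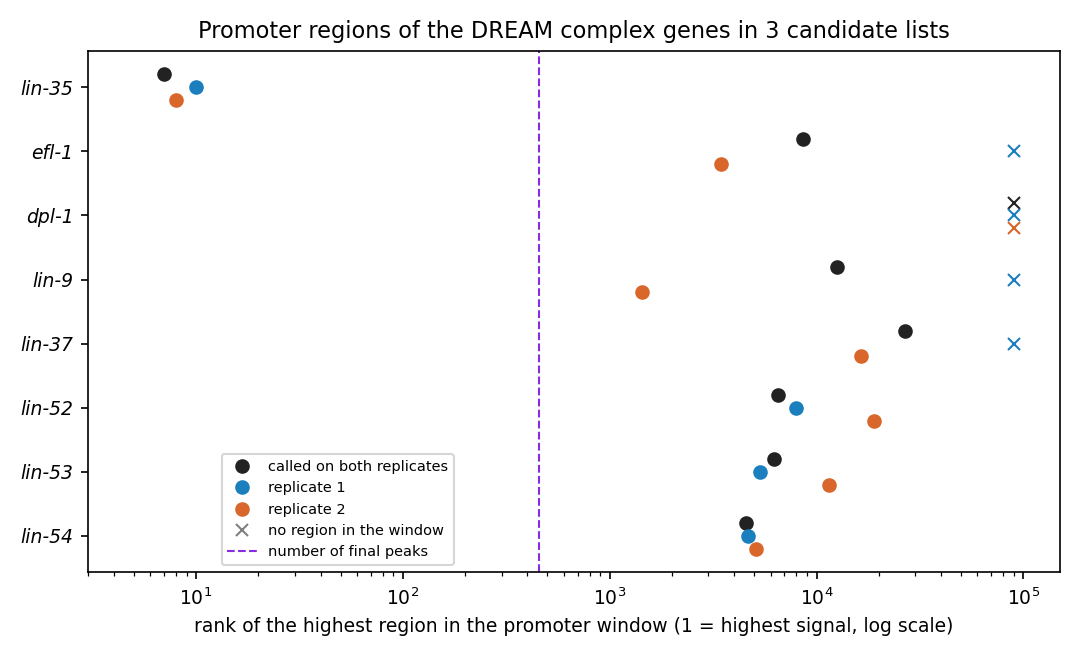
Rank of the highest region in the promoter window of each gene (rows) on a log axis, for the list called on both replicates (black), replicate 1 (blue) and replicate 2 (orange). Crosses at the right edge mark lists with no region in the window, at an arbitrary x position, and the dashed line is the number of final peaks, 457. The lin-35 points lie at ranks 7 to 10, and every other point lies right of the line.

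lin-35 had 1 region in its window in every list, and its rank was nearly the same in each. Its signal was 104 in replicate 1 (rank 10 of 30000), 154 in replicate 2 (rank 8 of 22464) and 258 in the pooled list (rank 7 of 27953). Both replicates thus placed it among their 10 highest regions. The −log10 q-value of the region was 2.31 in the pooled list, and no region has a higher value there. Other regions may have the same value, and how many do was not counted. Counting each gene once by its highest promoter region, lin-35 was the fourth highest of 8242 genes in the pooled list. It was number 5 of 8525 genes in replicate 1 and number 9 of 7143 in replicate 2.

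The lin-35 peak lay in the short gap between a pair of genes that are read away from each other. It covered I:5807231-5807674 on ce11, outside any annotated gene at its summit, upstream of the lin-35 transcript (I:5807709-5815637, plus strand, WBGene00003020). The divergent partner is vps-51, whose product belongs to a vesicle tethering complex. The gap between their 5′ ends is 417 bp, and the pooled region covered 383 bp of it. The width of that region, 444 bp, is the median width of the pooled list. The pooled summit was at -256 bp from the lin-35 5′ end and at -162 bp from the nearer of the 5′ ends of vps-51, where negative distances are upstream of the gene named. The summits of the 3 candidate lists fell within 38 bp of each other, at -256, -259 and -221 bp from lin-35, all nearer to vps-51. Assigned only to the gene with the nearest 5′ end, the peak went to vps-51 and none of the 8 genes kept a final peak. The lists hold no measurement that could assign it to 1 of the genes.

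**Figure D2:**
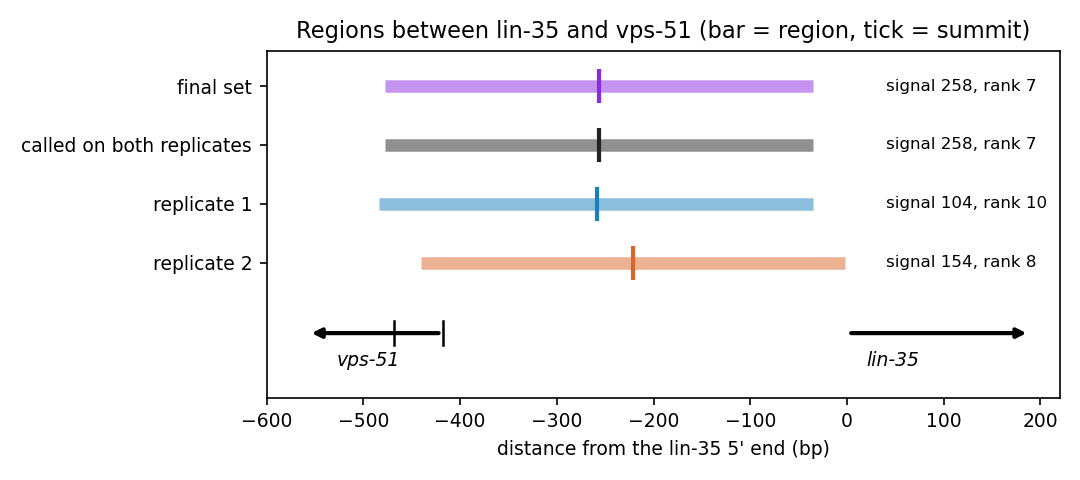
The gap between lin-35 and vps-51, with the distance from the lin-35 5′ end in bp on the x axis. Bars are the regions of the final set, the pooled list and each replicate, ticks on them are the summits, and black arrows and ticks are the genes and their 5′ ends. The 4 summits lie from -259 to -221 bp of the lin-35 5′ end.

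Pooled summits around lin-35 were fewer than at the median gene, as they were around efl-1. From the lin-35 summit the next pooled summit was 5548 bp away, and no candidate summit of any list lay inside the 7929 bp of lin-35. At lin-35 and at efl-1, 3 pooled summits lay within 10000 bp of the 5′ end, and the median over all protein-coding genes was 5. The lin-35 summit window, 100 bp on each side, had a GC content of 35.8% (median of pooled windows 42.3%, of final windows 48.3%). Of the 24-base words in that window, 0% occur elsewhere in the genome.

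The genes ranked most like lin-35 across the 3 candidate lists were also found at shared regions. The ranking is by gene, so a shared region enters once for each of its genes. Apart from these regions and that of lin-35, each pooled region down to rank 12 was in the window of 1 gene or of none. The measure was the Euclidean distance between the log10 ranks over the 3 lists, which come from 2 samples. chaf-2, which encodes a subunit of the CAF-1 histone chaperone, and its neighbour Y71G12B.30 came first, at a distance of 0.239, with ranks of 9, 16 and 7 in the pooled list, replicate 1 and replicate 2. Both genes have the same region, 172 bp wide, against 444 bp at lin-35. The lin-35 width is also the median width of the pooled list and of the final set. Y41D4A.4 and Y41D4A.6 followed at 0.345 with ranks of 11, 19 and 9, again at a region common to both. Next came K10D2.5, emb-1 and prp-19, which have 1 region and the same distance of 0.395, with ranks of 10, 20 and 5. The region at these 3 genes covers 200 bp.

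Of the E2F-type pair, efl-1 had a region in replicate 2 and in the pooled list, and dpl-1 had none. efl-1 (V:16958590-16965675, minus strand, WBGene00001161) had no region in the replicate 1 window, and its nearest replicate 1 summit was 1708 bp upstream. In replicate 2 it had regions with signals of 26.2 (rank 3435) and 19.9 (rank 9000), with summits at 6 bp and -205 bp from the 5′ end. In the pooled list 1 region of signal 36.0 (rank 8563) had its summit between those, at -49 bp. The efl-1 signal was therefore seen in replicate 2 and in the list that contains it. Of the 3435 replicate 2 regions ranked as high, 551 (16%) had no replicate 1 summit within 500 bp. Bases 149 to 1 bp upstream of efl-1, which hold the pooled summit, are shown because only efl-1 of the E2F-type pair had a region. They cover chrV:16965676-16965824 and are written on the gene's strand, with the sole match to a searched motif in capitals, the reverse complement of TTTGAA.
efl-1: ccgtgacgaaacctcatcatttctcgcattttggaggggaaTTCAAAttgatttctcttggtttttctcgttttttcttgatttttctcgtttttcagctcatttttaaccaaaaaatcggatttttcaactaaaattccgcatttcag

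dpl-1 (II:9169910-9172565, plus strand, WBGene00001061) was the gene of the set with no promoter region in any list. The nearest summits were 2727 bp upstream in the pooled list (signal 23.7, rank 23828), 2739 bp upstream in replicate 1 (signal 14.5, rank 20896) and 2788 bp downstream in replicate 2 (signal 14.1, rank 22133). All 3 are among the weaker regions of their lists, and the nearest final peak was 55933 bp away. Its lack of a region does not show that dpl-1 was unbound, since depth is unknown.

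Of the MuvB core genes, lin-9 had the highest region of any member but lin-35 in a single replicate, and in replicate 2 alone. lin-9 (III:8900237-8904131, minus strand, WBGene00002998) had signal 32.5 in replicate 2, at rank 1432 of 22464, with its summit at -131 bp. Replicate 1 had no region in the window, and the nearest replicate 1 summit lay 2939 bp upstream at signal 11.95. The pooled region had signal 31.5 and rank 12587 and its summit was at -127 bp, close to that of replicate 2. Fewer regions as high as that of lin-9 lacked a counterpart than at efl-1: 128 of the 1432 replicate 2 regions of its rank or better (8.94%) had no replicate 1 summit within 500 bp. The sequence around the pooled summit is shown because it holds the only E2F-type match among the member windows. It covers chrIII:8904158-8904358, from 227 to 27 bp upstream of lin-9 outside annotated exons, on the gene's strand, with matches in capitals. From the 5′ end they are GAGAGA in reverse complement, TTTGAA as written, the same motif in reverse complement, and TTTCGCGC, which opens a longer run of alternating G and C.
lin-9: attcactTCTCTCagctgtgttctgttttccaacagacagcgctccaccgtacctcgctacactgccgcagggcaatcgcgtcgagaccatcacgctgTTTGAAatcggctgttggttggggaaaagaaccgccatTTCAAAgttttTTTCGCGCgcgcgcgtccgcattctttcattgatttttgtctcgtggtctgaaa

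lin-54, which encodes the DNA-binding subunit of the core, had the highest pooled region after lin-35. Its highest regions in the replicates had similar ranks but different summits. The gene lies at IV:13241044-13243401 (plus strand, WBGene00003037). Its signals were 24.8 in replicate 1 (rank 4667), 23.6 in replicate 2 (rank 5098) and 43.7 in the pooled list (rank 4571). The replicate 1 value is that of a region at -753 bp, 330 bp from the replicate 2 summit. A second replicate 1 region at -543 bp (signal 24.1, rank 5177) was nearer, at 120 bp from the replicate 2 summit. The summits lay far from the 5′ end, at -753 and -543 bp in replicate 1, -423 bp in replicate 2 and -465 bp in the pooled list. They fall in the divergent neighbour rpl-12, a gene of the large ribosomal subunit. The pooled summit lay in the 5′ untranslated exon of rpl-12, at 72 bp from its outermost 5′ end and at -19 bp from another. Of that summit window, the stretch on the rpl-12 coding side of its untranslated exon is shown. The untranslated bases, which include the summit, and the bases beyond the outermost rpl-12 5′ end are left out. The stretch was picked because it holds the only TAATTA match, the core bound by homeodomains, among the member windows. It covers chrIV:13240479-13240560 on the strand of lin-54, which here is inside rpl-12, with that match in capitals.
lin-54: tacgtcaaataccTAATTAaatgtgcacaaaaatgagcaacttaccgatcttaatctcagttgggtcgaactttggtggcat

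lin-52 and lin-37 encode small subunits of the core, and each follows another gene closely on the same strand. lin-52 (III:9824083-9824750, minus strand, WBGene00003035) begins 126 bp after ZK632.9, and lin-37 (III:7070890-7072552, minus strand, WBGene00003022) 60 bp after ZK418.5. The lin-52 region had signal 21.3 in replicate 1 (rank 7916), 15.1 in replicate 2 (rank 18954) and 39.2 in the pooled list (rank 6549). Its summits were the most closely placed of all, at -187, -189 and -189 bp, in the 3′ untranslated exon of ZK632.9. A second pooled region at -388 bp had signal 25.5 (rank 20623). lin-37 had the lowest pooled region of the genes that had any. Its signal was 16.1 in replicate 2 (rank 16377), above that of lin-52 there, and 22.4 in the pooled list (rank 26715), and replicate 1 had no region in its window. Those summits, at -94 and -92 bp, also lay in a 3′ untranslated exon of the gene before it. A stronger pooled region (signal 34.3, rank 9916) lay outside its window, at -1447 bp.

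lin-53 encodes the histone-binding protein of the RbAp48 type, which the DREAM complex has in common with several chromatin complexes. The gene lies at I:9618196-9619760 (minus strand, WBGene00003036). Like lin-35, it has a divergent partner at short distance, here nra-2, a gene for a nicalin-like membrane protein, whose outermost 5′ end leaves a gap of 466 bp. The pooled region, signal 39.8 and rank 6259, lay wholly in that gap at I:9619765-9620208, with its summit at -227 bp from lin-53 and at -240 bp from the nearer 5′ end of nra-2. In replicate 1 the signal was 23.9 (rank 5315) with a summit at -245 bp, and a weaker region (signal 18.8, rank 11417) lay at -506 bp in nra-2. In replicate 2 the signal was 18.4 (rank 11513) and the summit was at -103 bp. Replicate 2 had a higher region inside the gene, 1247 bp downstream of its 5′ end in coding sequence (signal 26.8, rank 3151). That summit is in the promoter window of rba-1, the paralog of lin-53 that follows it on the same strand.

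**Figure D3:**
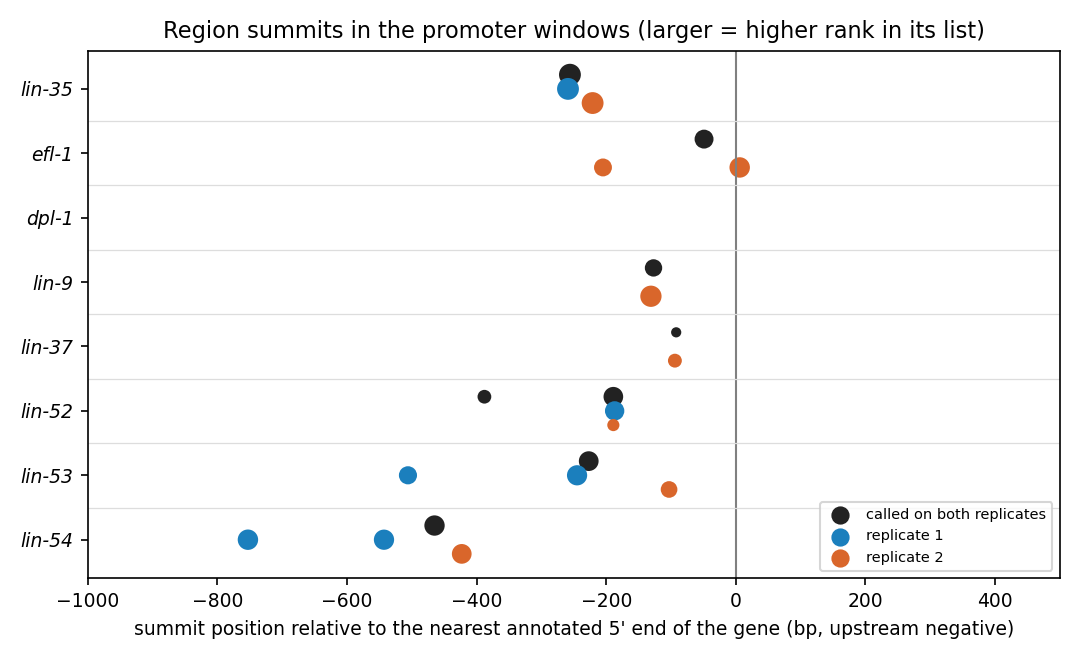
Position of every region summit in the promoter windows of the 8 genes (rows), in bp from the nearest annotated 5′ end, with upstream negative, for the pooled list (black), replicate 1 (blue) and replicate 2 (orange). Larger points rank higher in their own list. All but 1 summit, that of efl-1 in replicate 2 at 6 bp, lie upstream, and dpl-1 has none.

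The genes with a region in both replicates, lin-35, lin-54, lin-53 and lin-52, came in the same order in each. In replicate 2, genes without a replicate 1 region stood between them. lin-35 came first in each list. After it came lin-54, lin-53 and lin-52 in replicate 1, and lin-9, efl-1, lin-54, lin-53, lin-37 and lin-52 in replicate 2. The pooled order was lin-54, lin-53, lin-52, efl-1, lin-9 and lin-37. As a percentage of the list, ranks in replicates 1 and 2 were 15.6% and 22.7% for lin-54, 17.7% and 51.3% for lin-53, and 26.4% and 84.4% for lin-52. These ranges overlap between lin-54 and lin-53 and between lin-53 and lin-52, and those of lin-54 and lin-52 do not. Within each replicate lin-54 ranked above lin-53, and lin-53 above lin-52. The differences were not tested. The replicate summits behind these ranks lay 330 bp apart for lin-54, 142 bp for lin-53 and 2 bp for lin-52. A second replicate 1 region of lin-54, nearer to the replicate 2 summit, was at 17.3%. For lin-35, which was chosen for these values, the ranks were 0.0333% and 0.0356%. The remaining members had a region in replicate 2 only (efl-1, lin-9 and lin-37) or in neither replicate (dpl-1), so they have no such range. The summits of all 3 lists lay within 100 bp of each other for 2 of the 8 genes, lin-35 and lin-52, and for 10.3% of all genes. Both replicates had a region among their top 457 in 0.771% of all genes, and of the 8 this was met by lin-35.

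The median rank of the highest pooled region, over the 7 genes that had one, was at 23.4% of the list, beside 41.4% over the 8242 genes with a pooled region. In replicate 1 the medians were 16.6% over 4 genes and 42.1% over 8525, and in replicate 2 they were 22.7% over 7 genes and 40.8% over 7143. The medians of the members include lin-35, which was chosen for its signal. All these medians leave out the genes without a region and get no test. At 3 of the 7 genes (lin-35, lin-53 and lin-54) the highest region was also in the window of a gene on the other strand, and this held for 23.0% of the 8242 genes. The regions nearest to the limits of the windows were that of lin-54 in replicate 1 at -753 bp (signal 24.8), just inside, and outside them that of lin-9 at -1107 bp in the pooled list (signal 29.8) and that of lin-54 at 652 bp in replicate 1 (signal 16.1).

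Of the 8 motifs searched near the member summits, 4 had a match and 4 had none. The 8 pooled regions of the 7 genes were searched over 100 bp on each side of the summit and on both strands. TTTGAA, a CHR-type site of the kind LIN-54 contacts, was in 5 of 8 windows, those of efl-1, lin-9, lin-37, lin-53 and the weaker region of lin-52, and in 32.9% of all 27953 pooled windows. Its other form TTCGAA was in none of the 8 and in 9.44% of pooled windows. Of the E2F-type sites, TTTCGCGC was in the lin-9 window alone (1.36% of pooled and 1.97% of final windows). TTTGGCGC (0.941% of pooled windows) and TTCCCGCC (1.06%) were in none. AATGCAT, the site type of UNC-86 with MEC-3, was in 0 of 8 member windows (2.54% of pooled, 2.41% of final windows). GAGAGA was in 3 of 8, at lin-35, lin-9 and lin-37, and in 15.7% of pooled and 26.5% of final windows. TAATTA was in 1 of 8 (lin-54) and in 6.18% of pooled windows. The lin-35 window held GAGAGA and no other of these motifs. None of the matches overlapped another at the member summits, and a match is no evidence of a site in use.

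The genes that act with the complex were looked up in the same way. In 5 lists of related genes, which share some members and hold 73 genes in all, 47 had a pooled region in the promoter window (41.3% of all genes) and 1 had a final peak, chaf-2 (1.66% of all genes). The share with a final peak is near that of all genes and is not a result about these genes. The share with a pooled region is higher than that of all genes. It was not tested, and the lists were chosen with earlier results of these data known. Of 13 synMuv B genes outside DREAM, 11 had a pooled region and 0 a final peak. The highest were mep-1, for a zinc finger protein that works with the LET-418 remodeller, and lin-61, for an MBT-repeat chromatin protein. mep-1 had signal 76.3 (rank 492), with ranks of 425 and 1433 in replicates 1 and 2. lin-61 had signal 70.7 (rank 692), with ranks of 3115 and 306. Both lay below the lowest final signal, and each was in the top 457 of 1 replicate. Of the 4 synMuv A genes, 2 had a pooled region, lin-8 (signal 46.0, rank 3806) and lin-38 (signal 40.6, rank 5857). lin-8 had ranks of 6919 and 4340 in replicates 1 and 2. lin-38 had rank 3467 in replicate 1 and no region in replicate 2.

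Cell cycle and DNA replication genes are known targets of DREAM and E2F factors in animals. Of 23 cell cycle regulators, 13 had a pooled region and 0 a final peak, beside 41.3% and 1.66% of all genes. cul-1, for the scaffold of a ubiquitin ligase, had signal 58.8 (rank 1496; ranks of 14169 and 409 in replicates 1 and 2), and cdc-25.2, for a phosphatase that activates cyclin-dependent kinases, 57.5 (rank 1650; 2418 and 3075). Of 20 DNA replication genes, 14 had a pooled region and 0 a final peak, beside the same shares of all genes. With 1.66% of all genes called, a count of 0 in either list is not a result about its genes. The highest were psf-2, for a GINS subunit, with signal 44.8 (rank 4186), and pcn-1, for the sliding clamp PCNA, with 39.2 (rank 6576). The median rank of the genes with a pooled region was at 57.5% of the list for the cell cycle genes and 53.5% for the replication genes. It was at 52.7% for the 11 synMuv B genes and 17.3% for the 2 synMuv A genes with such a region. The value for all genes with a region was 41.4%. No test was made of these medians.

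The chromatin partners of LIN-53 included the 1 gene with a final peak. Of 16 such genes, 10 had a pooled region and 1 a final peak, beside 41.3% and 1.66% of all genes. The median rank of those 10 was at 26.5% of the list, beside 41.4% for all genes with a region, and was not tested. chaf-2 had signal 247 in the pooled list (rank 9), 87.5 in replicate 1 (rank 16) and 157 in replicate 2 (rank 7). Its summit was at -187 bp from its own 5′ end and at -312 bp from that of Y71G12B.30. chaf-1, for the large subunit of the same CAF-1 complex, had signal 72.8 (rank 611) with ranks of 3441 and 411 in replicates 1 and 2, and mep-1, which is in this list too, came before it. rba-1 had no region in replicate 1, signal 26.8 in replicate 2 and 25.6 in the pooled list (rank 20521).

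**Figure D4:**
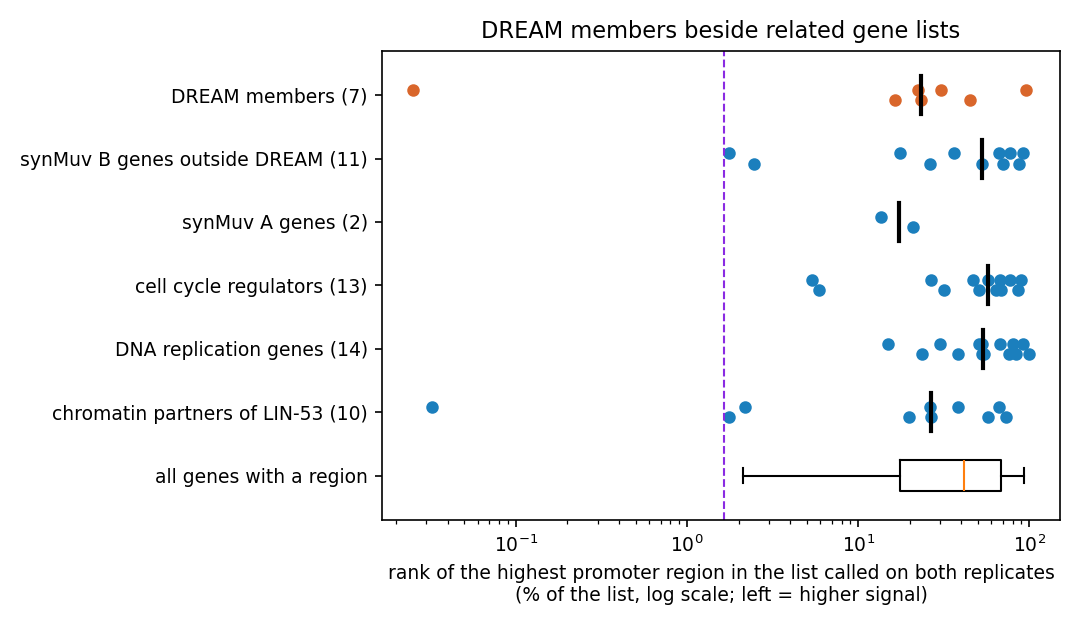
Rank of the highest promoter region of each gene in the pooled list, as a percentage of the list on a log axis, for the DREAM genes (orange) and 5 related lists (blue). The number of genes with a region is in parentheses, black bars are medians, the box and whiskers give the 25th to 75th and 5th to 95th percentiles of all 8242 genes with a region, and the dashed line marks the final set. lin-35 and chaf-2 are the 2 points left of the line.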

How the data were processed

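ChIP-seq regions of 2 replicates were analysed on ce11. Per the deposited file list, candidate regions were called on each replicate and on both together with a control file, and a final set was made by the irreproducible discovery rate method (IDR). The aligner, the caller, the IDR threshold and the read depth were not given in the sources used here. The signal of each region and the −log10 of its q-value are as the authors deposited them. Lists on ce10 were not used here.

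Genes came from Ensembl release 115 on WBcel235 and sequences from the RefSeq copy of WBcel235. Region ends lay within its chromosome lengths. Coordinates are 1-based. Ranks were taken within a list, and ties share the lowest rank. Assignment to genes was tested on simulated data. Analysis used Python 3.11.15 and pandas 2.3.3. The members and lists were chosen with earlier results of these data known. Genes named are the 8 members, genes that share their regions, the 5 ranked most like lin-35 with ties of the fifth, and of each related list the genes with a final peak and the 2 of highest signal. All symbols matched the annotation. With 1 group there was no comparison between groups and no p-value was computed.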

Additional observations from a re-analysis of the deposited data

How the results depend on the processing

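Of 53 recomputed values, 41 stayed within 1.5 times the reported count or within the spread of the replicates, and 12 did not. The final peak count of the 8 genes was 1 under each alternative (windows of 500 or 2000 bp upstream, the outermost 5′ end, overlap of the whole region, the upper part of the final set, each replicate alone) except assignment to the nearest gene only, which gave 0 because vps-51 is nearer. With replicate 1 or replicate 2 left out, genes with a candidate region numbered 7 and 4, the median rank was 22.7% and 16.6%, and the rank of lin-35 was 0.0356% and 0.0333% of the list. Genes with a region in every list used numbered 7 without replicate 1 and 4 without replicate 2, and 2 where the summits also had to lie within 100 bp. With the top 457 regions of replicate 2 or replicate 1 alone, 1 and 1 synMuv B genes, 1 and 0 cell cycle regulators and 2 and 2 chromatin partners of LIN-53 had a peak. The synMuv A and DNA replication counts stayed at 0 in each alternative run. No paired analysis was possible because there is 1 group. Unknown depth limits every statement on a missing region.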
